A study of Canis lupus familiaris with 29 samples.

Results

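TIAM2, MEGF11, LCT, ABCC8, FOXI3, TMEM255A, MBNL3, STC2, CDCP1 and C20H3orf14 are 10 genes chosen by their RNA levels, which were higher in canine tumors than in normal adrenal medulla. They are 10 of the 30951 genes in the count table, found there by gene name, and all 10 passed the low-count filter in both comparisons made here, which tested 14766 and 14666 genes. Because they were selected on the tumor-normal difference in counts, their values in tumors and normal samples are given as a description, without a test.

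The tumors are pheochromocytomas, which arise from the catecholamine-producing chromaffin cells of the adrenal medulla, and paragangliomas, their counterparts outside the adrenal gland; together they are abbreviated PPGL. The study compared 19 PPGLs of client-owned dogs (18 pheochromocytomas and 1 paraganglioma) with normal adrenal medulla (NAM) of 10 healthy research dogs, to find what differs in tumor RNA. The authors had left out 2 further tumors that lay apart in a principal component analysis, so the 19 are not an unselected cohort. The PPGLs came from several clinics, were snap-frozen or kept in RNAlater, and were split by the authors along a principal component analysis into PPGL group 1 (7 tumors) and PPGL group 2 (12 tumors). The NAMs were dissected from adrenal glands and snap-frozen, so that origin and handling cannot be told apart from tissue. The labels give no age, sex, breed or sequencing batch for any sample.

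Reads from stranded mRNA libraries were counted over the exons of each gene. The total count per sample was 19258054 to 35918182 in NAMs, 18493540 to 31919833 in group 1 and 18208718 to 24569667 in group 2. Levels are given as TMM CPM, counts scaled to a common library total after TMM normalization, a scaling that corrects for a few abundant genes taking up reads. A library with 3 counts or fewer was taken to be at the floor of detection, and this floor covers counting error only.

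The 10 genes act at different places in a cell. TIAM2 encodes an exchange factor that loads the small GTPase RAC with GTP, and CDCP1 a membrane glycoprotein that SRC family kinases phosphorylate and that is known from invasive carcinomas. MEGF11 and TMEM255A encode membrane proteins, ABCC8 the sulfonylurea receptor of ATP-sensitive potassium channels, LCT the lactase of the intestinal brush border and STC2 a secreted glycoprotein, while FOXI3 is a forkhead transcription factor, MBNL3 a muscleblind RNA-binding protein and C20H3orf14 an open reading frame whose function is not established.

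A description of the set as nearly silent in normal medulla held for some of its genes and not for others. The median of the NAMs lay under 1 TMM CPM in 7 of the 10 genes, as it did in 10% of all genes tested. The exceptions were C20H3orf14, TIAM2 and LCT, with NAM medians of 6.04, 5.96 and 2.90 TMM CPM. Every NAM was at or under the floor of 3 counts for 2 genes, FOXI3 and MBNL3, and no NAM was at or under it for 5 genes (TIAM2, LCT, TMEM255A, CDCP1 and C20H3orf14). Among the genes tested, the NAM medians of C20H3orf14 and TIAM2 stood at percentiles 27.5 and 27.4, that of LCT at 19.3 and those of the other 7 genes between 0 and 6.03. The set is therefore called by its genes here.

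The tissue labels were compared with marker genes. All 14 chromaffin cell markers were found, and their summed level ran from 18308 to 98204 TMM CPM in NAMs (median 32731), from 9280.5 to 120168 in group 1 (median 36371) and from 21807 to 106467 in group 2 (median 50910.3), with CHGB as the most abundant gene (26726 ± 16181 in NAMs and 32146 ± 27648 in PPGLs, mean ± SD). No chromaffin marker was at 0 in any NAM. The NAMs also held RNA of the adrenal cortex: 10 of 11 cortex markers were found by gene name (CYP11B2 was not, since lists were matched by name and many genes in the table have none), all of them above 0 in every NAM, with a summed level of 13093 to 63923 TMM CPM. In such bulk samples, fewer cells of a type and less RNA per cell cannot be told apart.

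TIAM2 (ENSCAFG00000000577; CanFam3.1 chromosome 1, 44870103 to 45002684, plus strand) ranged from 3.31 to 11.2 TMM CPM in NAMs, with a median of 5.96. It ranged from 32.9 to 96.9 TMM CPM in group 1 (median 56.0) and from 54.9 to 183 in group 2 (median 95.7). Every one of the 19 PPGLs lay above every NAM, group 1 replicate 4 being the lowest tumor and group 2 replicate 6 the highest, and the ranges of the PPGL groups overlapped. The log2 fold change (log2 FC) of PPGLs over NAMs was 3.69 (SE 0.30). TIAM2 overlaps TFB1M, which lies on the opposite strand, and TFB1M reached at most 429 counts in any sample, below the 742 counts of TIAM2 in its lowest tumor. In NAMs TIAM2 held 65 to 424 counts against a median of 224 for TFB1M over all samples, and the strand setting of the counting is not known, so the NAM level of TIAM2 is the less certain.

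CDCP1 (ENSCAFG00000014040; chromosome 20, 43234387 to 43289765, plus strand) ranged from 0.229 to 1.69 TMM CPM in NAMs (median 0.453). Its levels were 2.50 to 68.3 TMM CPM in group 1 (median 18.9) and 0.285 to 42.7 in group 2 (median 14.7). All 7 tumors of group 1 lay above every NAM, and in group 2 the exceptions were replicates 2 and 3, which lay within the NAM range at 1.14 and 0.285 TMM CPM. The highest NAM was replicate 10, and without it 18 PPGLs lay above every NAM.

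MEGF11 (ENSCAFG00000017261; chromosome 30, 30227160 to 30561562, minus strand) had 0 to 8 counts in the NAMs, or 0 to 0.324 TMM CPM with a median of 0.1247. The PPGLs held 4 to 1615 counts, which are 0.134 to 36.0 TMM CPM in group 1 (median 16.2) and 1.64 to 91.1 in group 2 (median 6.65). A single tumor, group 1 replicate 7, stayed within the NAM range, and the other 6 tumors of group 1 began at 1.74 TMM CPM. The highest MEGF11 levels were in group 2 replicates 12 and 6.

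TMEM255A (ENSCAFG00000018461; chromosome X, 92251816 to 92301558, minus strand) encodes a membrane protein of unknown function. Its level was 0.275 to 1.41 TMM CPM in NAMs (median 0.594), 2.64 to 30.2 in group 1 (median 13.2) and 0.427 to 411 in group 2 (median 7.46). Group 2 held both the lowest tumor (replicate 3, within the NAM range) and the 3 highest, replicates 9, 4 and 11 at 411, 285 and 150 TMM CPM. Those 3 tumors carried 79.6% of the TMM CPM summed over all 19 PPGLs, and the highest alone carried 38.7%.

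ABCC8 (ENSCAFG00000008779; chromosome 21, 39962947 to 40036981, minus strand) had 0 to 10 counts in NAMs, or 0 to 0.399 TMM CPM with a median of 0.132. Its levels in the PPGLs were 0.143 to 9.43 TMM CPM in group 1 (median 1.60) and 0.210 to 13.1 in group 2 (median 4.62). Of the 19 PPGLs, 14 lay above every NAM. The other 5, replicates 3 and 4 of group 1 and replicates 3, 10 and 12 of group 2, lay between 0.143 and 0.339 TMM CPM, within the NAM range.

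LCT (ENSCAFG00000005126; chromosome 19, 38572058 to 38620567, minus strand) was detected in every sample, with 13 to 145 counts in NAMs. Its level was 0.450 to 5.53 TMM CPM in NAMs (median 2.90), 3.63 to 157 in group 1 (median 26.1) and 3.15 to 288 in group 2 (median 77.3). Group 1 replicate 1 and group 2 replicate 9 stayed within the NAM range, and 17 PPGLs lay above it. LCT was highest in group 2 replicates 7 and 8, at 288 and 278 TMM CPM.

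STC2 (ENSCAFG00000031727; chromosome 4, 39152503 to 39162343, plus strand) was the gene with the lowest median in the tumors on the TMM CPM scale. It had 0 to 5 counts in NAMs (8 of 10 at or under the floor) and 2 to 238 counts in PPGLs (3 of 19 at or under it). The level was 0 to 0.255 TMM CPM in NAMs, 0.117 to 2.44 in group 1 (median 0.571) and 0.117 to 12.6 in group 2 (median 0.565). Group 2 replicate 11 stood apart at 12.6 TMM CPM, 43.5% of the sum over PPGLs, while the next tumor was at 2.73. The 3 PPGLs within the NAM range were group 1 replicate 6 and group 2 replicates 3 and 5.

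FOXI3 (ENSCAFG00000031026; chromosome 17, 38032479 to 38037630, plus strand) had 2 counts in NAM replicate 3 and 0 in the other NAMs. In the PPGLs it ranged from 0 to 951 counts, with levels of 0 to 25.2 TMM CPM in group 1 (median 0.758) and 0 to 40.1 in group 2 (median 2.41). The tumors split: 7 of 19 were at or under the floor of 3 counts, and 5 of those (group 1 replicates 1 and 2, group 2 replicates 2, 3 and 10) had no count. At the other end, group 2 replicates 1 and 7 and group 1 replicate 7 held 40.1, 29.7 and 25.2 TMM CPM. Its log2 FC of 9.30 (SE 1.70) was the highest of the 14766 genes that passed the filter, but it depends on edgeR's default prior because the NAMs were at or under the floor, and it ran from 6.49 to 9.54 under the alternatives and up to 10.60 with a sample left out. The mean over PPGLs was 68.2 times the mean level that 3 counts in each NAM would give.

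MBNL3 (ENSCAFG00000018841; chromosome X, 103264542 to 103327481, minus strand) also had at most 2 counts in any NAM. Its level was 0.0471 to 7.09 TMM CPM in group 1 (median 0.571) and 0.0474 to 8.38 in group 2 (median 1.77). In 15 PPGLs it lay above every NAM, and in group 1 replicate 2 and group 2 replicates 2, 3 and 11 it lay within their range. The mean over PPGLs, 2.39 TMM CPM, was 19.9 times the mean level that 3 counts in each NAM would give.

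C20H3orf14 (ENSCAFG00000007123; chromosome 20, 28745182 to 28759397, minus strand) differed least between tumors and NAMs on the log2 scale, with a log2 FC of 2.32 (SE 0.23). It ranged from 3.84 to 8.89 TMM CPM in NAMs (median 6.04), from 23.6 to 75.7 in group 1 (median 32.0) and from 15.5 to 58.9 in group 2 (median 24.2). All 19 PPGLs lay above every NAM, with group 2 replicate 9 the lowest and group 1 replicate 7 the highest.

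**Figure D1:**
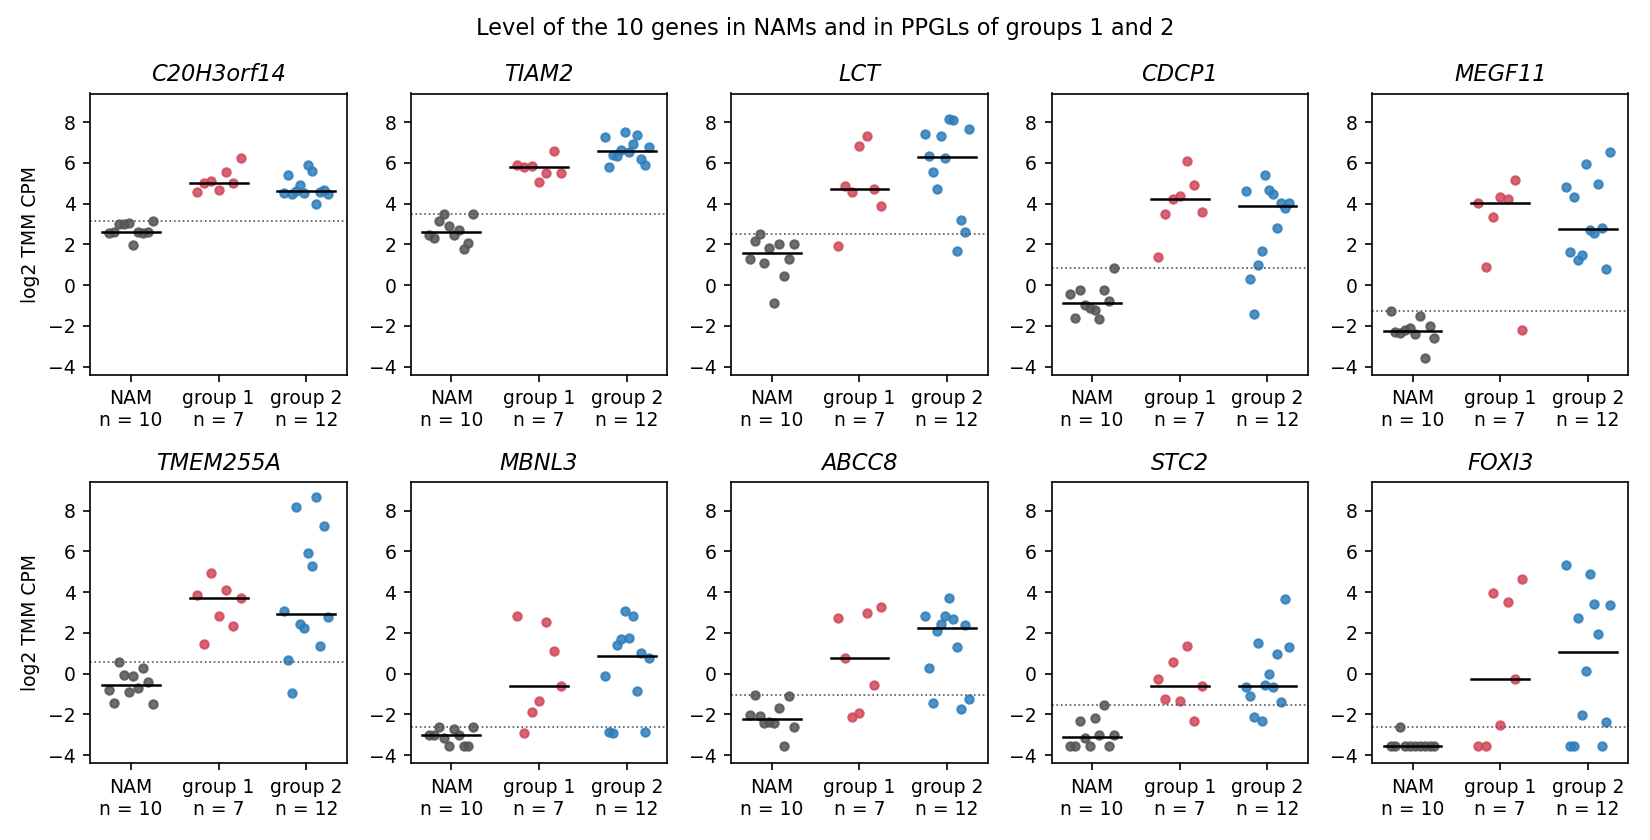
Log2 TMM CPM (vertical axis, prior count of 2) of each of the 10 genes in 10 NAMs, 7 PPGLs of group 1 and 12 PPGLs of group 2; each point is a sample, bars are medians and the dotted line is the highest NAM. All 19 PPGLs lie above the line for TIAM2 and C20H3orf14, and 14 do for ABCC8 and FOXI3.

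Counted over genes, the number of PPGLs above every NAM ran from 14 (ABCC8 and FOXI3) through 15 (MBNL3), 16 (STC2), 17 (LCT and CDCP1) and 18 (MEGF11 and TMEM255A) to 19 (TIAM2 and C20H3orf14). For FOXI3, 2 of the 14 tumors (group 1 replicate 4 and group 2 replicate 11) held 2 counts, as NAM replicate 3 did, and lay above it through scaling only, so that 12 tumors were above both the NAMs and the floor. For the other 9 genes every tumor counted was over the floor. Of all genes tested, 7.88% had at least 14 of the 19 PPGLs above every NAM, 5.36% at least 15, 3.32% at least 16, 1.91% at least 17, 0.813% at least 18 and 0.223% all 19. Of the 10 genes, 9 had a log2 FC over 3, and 2.07% of all genes tested were called higher with a log2 FC over 3. Nothing is read from these shares, since the same contrast chose the genes. LCT had a log2 FC of 4.92 (SE 0.76) and ABCC8 of 4.56 (SE 0.78). With 4 of the 10 NAMs at or under the floor, ABCC8 was as low as 3.87 under the alternatives. The log2 FCs of MBNL3 (5.79, SE 0.96) and STC2 (4.56, SE 0.88) depend on the prior, since 10 (MBNL3) and 8 (STC2) of the 10 NAMs were at or under the floor. Under the alternatives MBNL3 was as low as 4.35 and STC2 as low as 3.48, and STC2 was at 3.82 without group 2 replicate 11.

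Between genes, levels were compared per kilobase of exon. The PPGL median per kilobase was highest for C20H3orf14 (42.1 TMM CPM per kb), followed by TIAM2 (11.0), LCT (7.43), CDCP1 (4.94), MEGF11 (2.87), TMEM255A (2.43), MBNL3 (0.822), ABCC8 (0.797), STC2 (0.628) and FOXI3 (0.410). C20H3orf14 in its lowest tumor, at 25.7 TMM CPM per kb, lay above TIAM2 in its highest, at 24.9. All other neighbours in this order overlapped in their ranges over the tumors. In NAMs C20H3orf14 was again highest, with a median of 10.0 TMM CPM per kb, and TIAM2 followed with 0.811.

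Spread among tumors separated the genes as well. TIAM2 and C20H3orf14 had coefficients of variation of 0.482 and 0.460 over the 19 PPGLs, and their highest tumors were 5.56 and 4.88 times their lowest on the TMM CPM scale. The other 8 genes had coefficients of variation between 0.916 (ABCC8) and 1.98 (TMEM255A). For TMEM255A the highest tumor was 963 times the lowest, for MEGF11 679 times and for LCT 91.4 times.

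Counted over tumors, 6 of 19 PPGLs held all 10 genes above every NAM (1 of 7 in group 1 and 5 of 12 in group 2), and 14 of 19 held at least 9, or 12 of 19 when FOXI3 at or under the floor is not counted. The lowest number was 4, in group 2 replicate 3, whose total of 21435471 counts lay within the range of the other tumors of group 2. In that tumor ABCC8, FOXI3, TMEM255A, MBNL3, STC2 and CDCP1 were within the NAM range, whereas TIAM2, MEGF11, LCT and C20H3orf14 were above it at 84.3, 19.97, 46.7 and 21.7 TMM CPM. The next lowest was group 2 replicate 2 with 7 genes. Different tumors led for different genes: group 2 replicate 6 was highest for TIAM2 and MBNL3, group 2 replicate 7 for LCT and ABCC8, and 6 other tumors for 1 gene each.

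PPGL group 1 was compared with group 2 over the 19 tumors by edgeR's quasi-likelihood test, to ask how the genes vary between the kinds of tumor the authors separated. Since the authors drew the groups from the same expression data, the p-values describe that split. At an adjusted p below 0.1, 1 of the 10 genes was called, against 6.92% of all 14666 genes tested (1015 genes, or 497 without group 1 replicate 7). For the other 9 genes a difference was not shown by this test. The gene called was TIAM2, at 56.2 ± 20.3 TMM CPM in group 1 and 106 ± 41.3 in group 2 (mean ± SD). Its log2 FC of group 1 over group 2 was -0.90 (SE 0.26, 95% interval -1.40 to -0.40), with an FDR-adjusted p of 0.0575. By the Mann-Whitney U-test TIAM2 was not called (adjusted p 0.132), nor was it with the sample number as a block (adjusted p 0.196). Such a block pairs tumors of different dogs by number only, so it shows a dependence on processing and not a real pairing. The call also rested on single tumors: without group 1 replicate 4 the log2 FC was -0.81 with an adjusted p of 0.101, and without group 1 replicate 7 it was -0.85 with an adjusted p of 0.1253.

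The largest difference in size between the groups was that of TMEM255A, with a log2 FC of -2.66 (SE 1.15) and an adjusted p of 0.210. With a tumor left out this difference ran from -3.02 to -1.98. Its direction did not hold for the medians, which were higher in group 1, and the 3 highest tumors were all in group 2. TMEM255A was called by the Wald test of DESeq2 (adjusted p 0.0659) and with all 3 groups in 1 fit. It was not called by the Mann-Whitney U-test or with the sample number as a block. STC2 (log2 FC -1.17, adjusted p 0.477) and LCT (-1.08, adjusted p 0.493) had fitted values of the same sign, neither past the threshold. The direction of STC2 was not settled: its medians were 0.571 TMM CPM in group 1 and 0.565 in group 2. With the sample number as a block its log2 FC turned to 0.13, but group 2 replicate 11 has no group 1 partner in that block. LCT ran from -1.70 to -0.86 with a tumor left out. CDCP1 had a fitted log2 FC of 0.71 (adjusted p 0.610, 95% interval -0.65 to 2.07) and C20H3orf14 of 0.37 (adjusted p 0.478, 95% interval -0.16 to 0.89), and both intervals include 0. MEGF11, ABCC8, FOXI3 and MBNL3 had log2 FCs between -0.55 and -0.09, with no settled direction. The median of MEGF11 was higher in group 1, and the sign of ABCC8 changed in 3, of FOXI3 in 6 and of MBNL3 in 6 of the 19 fits with a tumor left out. For FOXI3 the 95% interval ran from -2.88 to 2.52. Single tumors moved several of these values: STC2 went to -0.15 without group 2 replicate 11 and to -1.69 without group 1 replicate 5. CDCP1 went to 0.14 without group 1 replicate 5, and C20H3orf14 to 0.13 without group 1 replicate 7. MEGF11 went to -0.06 without group 2 replicate 12.

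The adrenal cortex markers also differed between the PPGL groups. Their summed level was 35.2 to 1149 TMM CPM in group 1 (median 223) and 218 to 31934 in group 2 (median 3437), and 9 of the 10 markers tested were lower in group 1, with a median log2 FC of -6.63. The most abundant marker, CYP17A1, was at 11981 ± 5650 TMM CPM in NAMs and 1542 ± 2798 in PPGLs. Among the PPGLs, CYP11A1 was at 0 in 2, HSD3B2 in 1, MC2R in 4, NR0B1 in 6 and MRAP in 4, and the other 5 markers were at 0 in none. Over the 19 tumors, TIAM2 and the mean log2 level of these markers had a Spearman rho of 0.549 (permutation p = 0.0164, adjusted p 0.166) and a Pearson r of 0.603 (permutation p = 0.00673, adjusted p 0.0874), or 0.617 without the 2 tumors farthest from the median. Within the groups rho was 0.321 in group 1 and -0.0909 in group 2, so the relation did not hold within both. The part of cortex RNA in the group difference of TIAM2 was not tested.

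**Figure D2:**
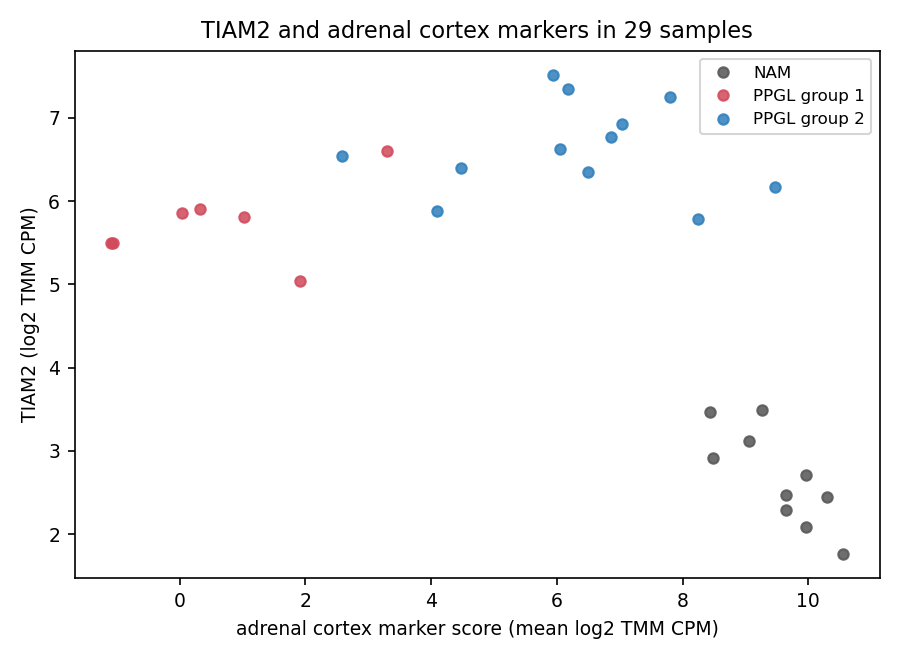
TIAM2 (vertical axis, log2 TMM CPM) against the mean log2 TMM CPM of 10 adrenal cortex markers (horizontal axis) in 10 NAMs, 7 PPGLs of group 1 and 12 PPGLs of group 2; each point is a sample. Every PPGL lies above every NAM in TIAM2, and the group 1 tumors lie at the lower end of the cortex markers.

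Mitosis markers ran the other way. Of 20 listed, 19 were found and tested, and edgeR called 14 of them higher in group 1, with a median log2 FC of 1.62, while the Mann-Whitney U-test called 1. Their summed level was 70.3 to 1619 TMM CPM in group 1 (median 262) and 66.0 to 241 in group 2 (median 143). The upper limit of group 1 was that of replicate 7 alone, and the next tumor of that group was at 459. CENPE, the most abundant mitosis marker over all 29 samples, was at 22.9 ± 28.4 TMM CPM in PPGLs, where CENPF was higher at 26.3 ± 57.7, and no mitosis marker was at 0 in any sample. TIAM2 had a rho of -0.635 with the mean log2 level of these markers (permutation p = 0.00453, adjusted p 0.0906) and an r of -0.582 (adjusted p 0.0874), with a rho of -0.429 in group 1 and -0.273 in group 2. With a tumor left out the adjusted p of rho was above 0.05 in 17 of 19 cases, up to 0.206, and below it without group 2 replicate 1 (0.0175) and without group 2 replicate 9 (0.0460). The part of these markers in the group difference of TIAM2 was not tested.

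Co-expression of the 10 genes was measured over the 19 PPGLs, without the NAMs, on log2 TMM CPM. Of the 45 pairs, 36 had a positive rho, the median rho was 0.235 and the range was -0.593 to 0.740. After adjustment over the 45 pairs, 1 pair had an adjusted p below 0.05, and 9 had an unadjusted permutation p below 0.05.

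That pair was TMEM255A and STC2, with a rho of 0.740 (permutation p = 0.000590, adjusted p 0.0265) and an r of 0.733 (adjusted p 0.0198). Without the 2 tumors farthest from the median r was 0.720, and rho was 0.857 within group 1 and 0.755 within group 2. With each tumor left out in turn, rho stayed between 0.705 and 0.794 and the adjusted p was below 0.05 in 15 of 19 cases. It was 0.0765 without group 2 replicate 4, 0.0517 without replicate 7, 0.0607 without replicate 10 and 0.0765 without replicate 11 of the same group.

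The lowest rho belonged to MEGF11 and C20H3orf14, at -0.593 (permutation p = 0.00881, adjusted p 0.141), with -0.357 in group 1 and -0.685 in group 2. Their r of -0.582 became -0.326 without the 2 tumors farthest from the median, so the relation rested in part on those tumors. The adjusted p fell below 0.05 only without group 1 replicate 6, where it was 0.0371. C20H3orf14 and TIAM2 had a rho of -0.496 (adjusted p 0.194). FOXI3 had a rho of 0.570 with TMEM255A and 0.554 with CDCP1, and ABCC8 a rho of 0.565 with MBNL3, each with an adjusted p of 0.141. TIAM2 and MEGF11 followed with 0.519 (adjusted p 0.185), ABCC8 and FOXI3 with 0.490 (adjusted p 0.194) and MBNL3 and CDCP1 with 0.460 (adjusted p 0.249).

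**Figure D3:**
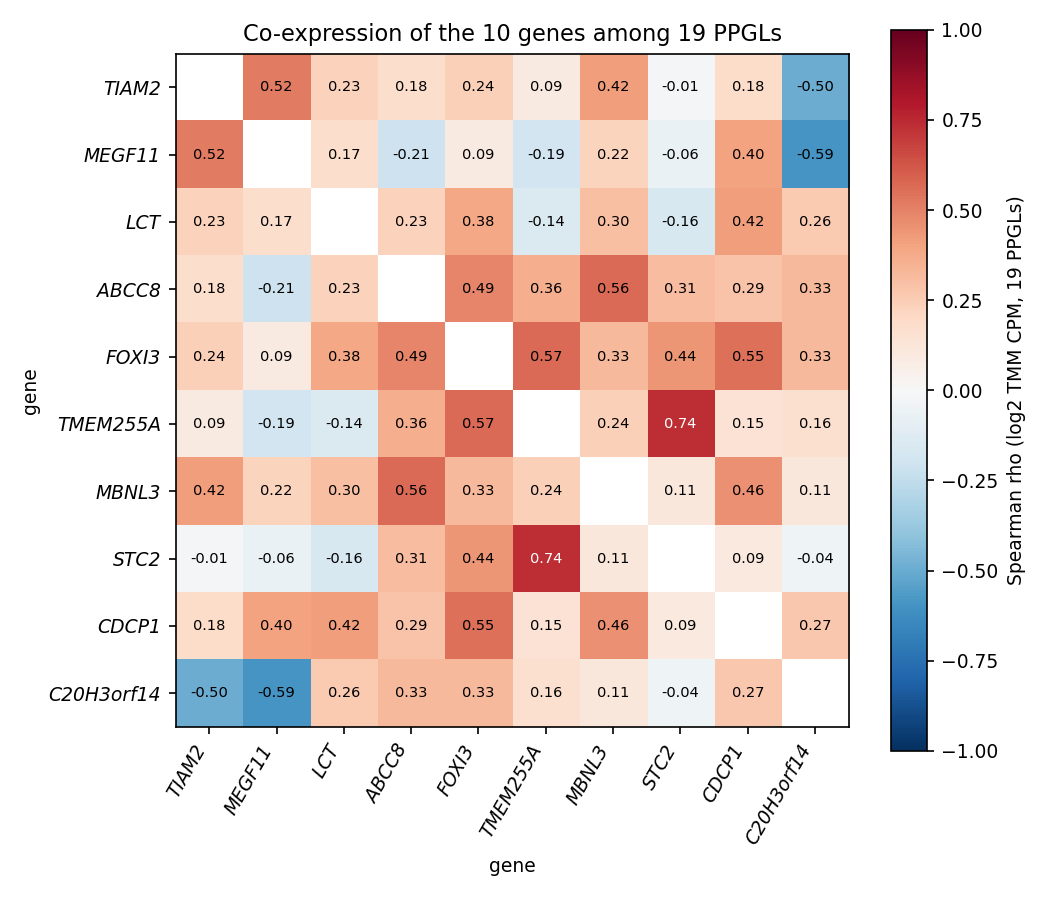
Spearman rho between each pair of the 10 genes over 19 PPGLs, from log2 TMM CPM; red is positive and blue negative. TMEM255A and STC2 have the highest rho, and MEGF11 and C20H3orf14 the lowest.

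Each gene was then related to the mean log2 level of 9 marker lists and to the log10 total count, 100 relations in all. By Spearman 3 relations had an adjusted p below 0.05, by Pearson 2 did, and 16 had an unadjusted permutation p below 0.05. No relation with the total count was called; the rho of largest size with it was 0.400, for MBNL3 (adjusted p 0.429).

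TMEM255A rose with the leukocyte markers, with a rho of 0.793 (permutation p = 8e-05, adjusted p 0.00800) and an r of 0.811 (adjusted p 0.00100). Without the 2 tumors farthest from the median of TMEM255A r was 0.801, with group 2 replicate 11 kept. Within group 1 rho was 0.464 and within group 2 it was 0.839. The call was kept with any 1 of the 19 tumors left out, with rho between 0.756 and 0.864. The leukocyte score was highest in group 2 replicates 11, 9 and 7, and its lowest tumor, group 2 replicate 3, was also the lowest for TMEM255A.

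STC2 had a rho of 0.716 with the leukocyte markers (permutation p = 0.000730, adjusted p 0.0365) and an r of 0.771 (adjusted p 0.0100), which was 0.588 without the 2 farthest tumors. Within the groups rho was 0.714 in group 1 and 0.664 in group 2. This call was less firm: with each tumor left out in turn rho ran from 0.666 to 0.849 (without group 2 replicate 12), and the adjusted p, between 0.00500 and 0.127, was below 0.05 in 9 of 19 cases. It was 0.0833 without group 1 replicate 4 and 0.102 without replicate 6 of that group. In group 2 it was 0.0517 without replicate 2, 0.127 without 3, 0.0600 without 4, 0.0625 without 5, 0.0700 without 6, 0.0533 without 7, 0.0675 without 10 and 0.0900 without 11.

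Of 14 leukocyte markers 12 were found (CD14 and TYROBP were not), and 11 passed the filter. Their summed level was 491 to 813 TMM CPM in NAMs (median 681), 421 to 1486 in group 1 (median 548) and 264 to 1390.2 in group 2 (median 530.3). CD79A made up most of that sum (453 ± 104 TMM CPM in NAMs and 395 ± 247 in PPGLs), while PTPRC was at 17.5 ± 8.52 and 21.2 ± 26.5. The sum thus follows CD79A and is not the value used in the correlations. That value, the mean log2 level of the 11 markers, was 3.16 ± 0.377 in NAMs and 3.40 ± 0.895 in PPGLs. CD3D was at 0 in 1 PPGL and CD8A in 1 NAM, and the other markers in none. In PPGLs against NAMs, CD2, CD3E and CD8A were higher and CSF1R was lower, with a median log2 FC of 0.60 over the list; these names were chosen after their values were seen. Between the PPGL groups edgeR called 0 of the 11, with 3 at an unadjusted p below 0.05 and 0 by the Mann-Whitney U-test. The part of leukocyte RNA in the levels of TMEM255A and STC2 was not tested.

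**Figure D4:**
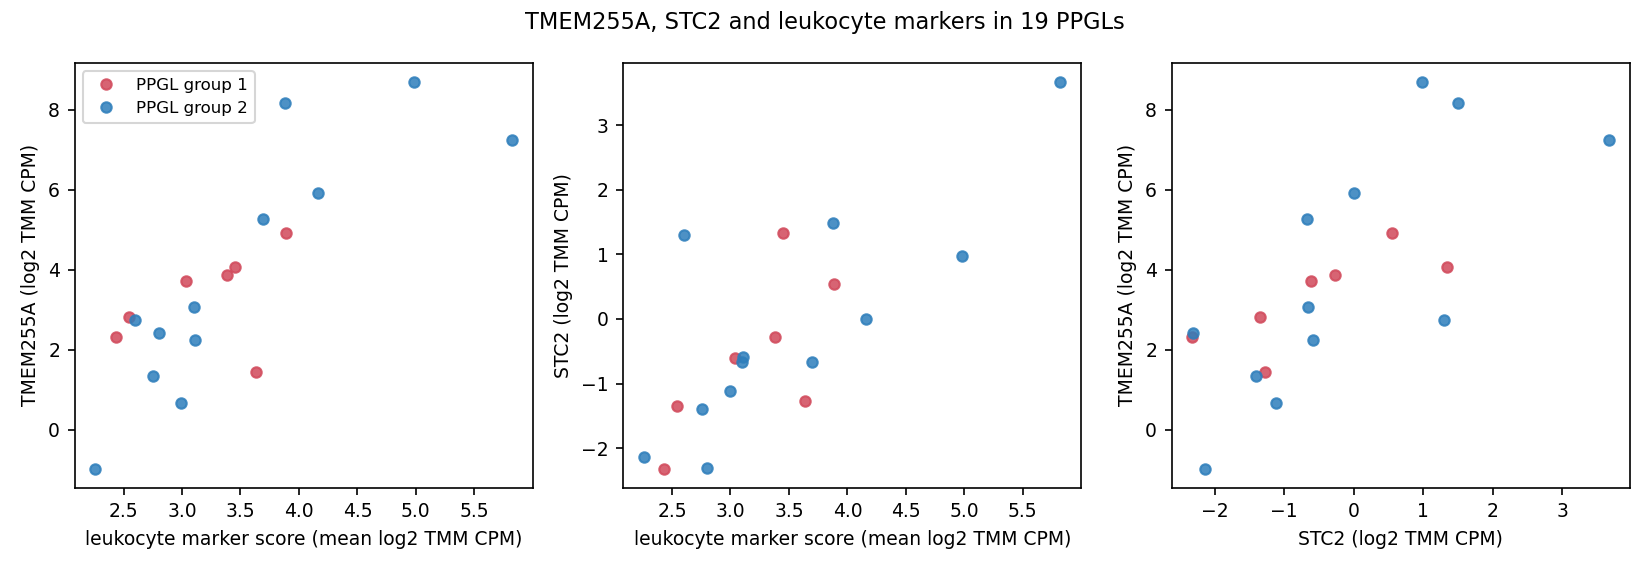
TMEM255A and STC2 (log2 TMM CPM) against the mean log2 TMM CPM of the leukocyte markers, and TMEM255A against STC2, in 7 PPGLs of group 1 and 12 of group 2; each point is a tumor. Both genes are high in group 2 replicate 11, which has the highest leukocyte markers, while group 2 replicate 12 has STC2 at 2.37 TMM CPM with low leukocyte markers.

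TMEM255A fell with the chromaffin markers, with a rho of -0.695 (permutation p = 0.00136, adjusted p 0.0453), -0.714 in group 1 and -0.846 in group 2. The Pearson r was -0.490 (adjusted p 0.207), or -0.618 without the 2 farthest tumors. With a tumor left out the adjusted p stayed below 0.05 in 6 of 19 cases, those without replicates 3, 5 and 7 of group 1 and 4, 8 and 9 of group 2. In the other 13 it was 0.0517 (group 1 replicate 2) to 0.143 (group 2 replicate 3). STC2 had a rho of -0.654 with the same markers (adjusted p 0.0752, but 0.0183 without group 2 replicate 12, 0.0417 without replicate 4 and 0.0385 with values centred on each PPGL group), FOXI3 -0.593 (adjusted p 0.129) and ABCC8 -0.546 (adjusted p 0.166, but 0.0312 without group 1 replicate 3). STC2 also had a rho of -0.591 with the Schwann and sustentacular cell markers (adjusted p 0.129, but 0.0460 without group 2 replicate 9), and LCT a rho of -0.554 with the epithelial markers (adjusted p 0.166). Within group 1 the adrenal cortex markers ranked the 7 tumors as the chromaffin markers did, so the group 1 values of rho cannot be told apart between these lists. The part of chromaffin cell content in these levels was not tested.

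No relation of either gene with stromal markers was called. STC2 and the pericyte and smooth muscle markers had an r of 0.692 (permutation p = 0.00183, adjusted p 0.0610), or 0.381 without the 2 farthest tumors, and a rho of 0.514 (adjusted p 0.208), with 0.393 in group 1 and 0.650 in group 2. STC2 and the fibroblast markers had an r of 0.587 (adjusted p 0.0874), or 0.171 without the 2 farthest tumors, and a rho of 0.484 (adjusted p 0.264), with -0.286 in group 1 and 0.825 in group 2. TMEM255A and the fibroblast markers had an r of 0.605 (adjusted p 0.0874), or 0.508 without those tumors, and a rho of 0.516 (adjusted p 0.208), with 0.00 in group 1 and 0.734 in group 2. Whether rho differed between the groups was not tested. TMEM255A and the pericyte and smooth muscle markers had a rho of 0.375 (adjusted p 0.437) and an r of 0.499 (adjusted p 0.199), and STC2 and the endothelial markers a rho of 0.440 (adjusted p 0.344) and an r of 0.572 (adjusted p 0.0874). The fibroblast markers summed to 658 to 1253 TMM CPM in NAMs, 532 to 6877 in group 1 and 2069 to 27269.6 in group 2. Those of pericytes and smooth muscle summed to 389.8 to 1621 in NAMs, 267 to 4009 in group 1 and 793 to 5227 in group 2, and no marker of either list was at 0 in any sample. In group 2 both upper limits were those of replicate 11 alone. The next tumors of that group were at 6366 for the fibroblast markers and 2285 for those of pericytes and smooth muscle. The part of stromal RNA in these levels was not tested. The other relations with an unadjusted p of rho below 0.05 were those of ABCC8 with Schwann and sustentacular cell markers (rho -0.512, adjusted p 0.208), MEGF11 with epithelial markers (-0.474, adjusted p 0.273) and MBNL3 with mitosis markers (-0.470, adjusted p 0.273).

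The remaining marker lists gave the tissue context. Among 10 endothelial markers 5 were lower in PPGLs than in NAMs and 0 higher, with a median log2 FC of -0.73, and PECAM1, the most abundant over all 29 samples, was at 156 ± 51.2 TMM CPM in NAMs, where VWF was higher at 189, and 153 ± 86.8 in PPGLs. Among 8 fibroblast markers 5 were higher (median 2.08), with THY1 at 443 ± 165 and 2030 ± 1882 TMM CPM. Among 8 markers of pericytes and smooth muscle 4 were higher (median 1.19), with RGS5 at 631 ± 426 and 1393 ± 806. EdgeR called 0 of the 7 Schwann and sustentacular cell markers tested (8 of 9 found), with 2 at an unadjusted p below 0.05 and 3 called by the Mann-Whitney U-test; CDH19 was at 37.0 ± 13.5 in NAMs and 13.6 ± 19.5 in PPGLs, where ERBB3 was higher at 18.05 ± 17.97. Of the 4 epithelial markers tested (7 of 9 found) 3 were higher (CDH1, KRT18 and ELF3, named after their values were seen), while the most abundant, EPCAM, was not called (84.0 ± 22.5 and 106 ± 75.4, adjusted p 0.501). The markers found but not tested went both ways. Mean levels in NAMs and PPGLs were 0.980 and 0.0607 TMM CPM for CLDN4, 0.140 and 0.0898 for CLDN7, and 0.0596 and 2.04 for ESRP1. Chromaffin markers were higher in 4 and lower in 1 of 14 (median 0.57), cortex markers lower in 9 of 10 (median -3.19) and mitosis markers higher in 17 of 19 (median 2.49), beside a median of 0.13 over all 14766 genes. Of all these genes, 22.3% were higher and 15.2% lower. Between the PPGL groups, edgeR called 1 of the chromaffin markers (HAND2) higher and 2 of the pericyte and smooth muscle markers (DES and CNN1) lower in group 1, genes named after their values were seen. It called 0 endothelial, 0 fibroblast, 0 Schwann and 0 epithelial markers between the groups, with 1, 5, 0 and 0 of them at an unadjusted p below 0.05 and 0 by the Mann-Whitney U-test.

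For each gene, up to 3 genes with the highest rho over the 19 PPGLs among 12749 named genes are given, without a p. For TIAM2 they were FBXW11 (0.851), CSNK1D (0.782) and MIEF1 (0.760), and for CDCP1 TFCP2L1 (0.718), NKD1 (0.698) and LRRN1 (0.675). MEGF11 was most like KCNJ3 (0.819) and SEC22A (0.754). TMEM255A was most like SLAMF7 (0.879), IL2RG (0.849) and GIMAP8 (0.835). STC2 was most like CD2 (0.872), PTPRC (0.867) and PDGFRB (0.847), of which CD2 and PTPRC belong to the leukocyte list and PDGFRB to that of pericytes. For ABCC8 the genes were ZNF662 (0.802), TSHZ3 (0.768) and KIF7 (0.753), and for LCT CHRNA3 (0.849), COMMD3 (0.842) and MAB21L2 (0.839). For FOXI3 they were IMPDH1 (0.807), OLFM2 (0.786) and ZBTB46 (0.784), and for MBNL3 TTC33 (0.781), STON2 (0.767) and DLGAP1 (0.744). C20H3orf14 was most like CPSF3 (0.796), GOLPH3L (0.789) and IMMT (0.774). No gene was named for more than 1 of the 10.

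By position, TMEM255A and MBNL3 lie on chromosome X, which holds 3.72% of the genes tested, and CDCP1 and C20H3orf14 on chromosome 20. Of the 20 nearest named genes, 1 on either side of each gene, 14 were tested, 3 were higher in PPGLs than in NAMs and 0 were lower, with a median log2 FC of 0.25. Of all genes tested, 22.3% were higher and 15.2% lower, and nothing is read from the count of neighbours. CLDN20, 15411 bases beyond TIAM2, was at 0.213 ± 0.164 TMM CPM in NAMs and 3.59 ± 5.72 in PPGLs (log2 FC 4.03, adjusted p 0.000665, above every NAM in 14 of 19). Its rho with TIAM2 over the PPGLs was 0.249. MCM6, a replication gene 6616 bases from LCT, was at 45.2 ± 7.40 and 156 ± 95.9 TMM CPM (log2 FC 1.78, adjusted p 3.05e-05, above every NAM in 17 of 19), and its rho with LCT over the PPGLs was 0.675. KCNJ11, 6224 bases from ABCC8, was at 0.252 ± 0.202 and 1.19 ± 0.784 TMM CPM (log2 FC 2.23, adjusted p 0.000757, above every NAM in 17 of 19), with a rho of 0.442. On their other sides, SCAF8 beside TIAM2, UBXN4 beside LCT and USH1C beside ABCC8 had log2 FCs of 0.10, 0.40 and 0.00, with adjusted p of 0.470, 0.0920 and 1.00.

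The other neighbours were not called. RAB11A and DIS3L beside MEGF11 had log2 FCs of 0.08 and 0.04, and LARS2 and CLEC3B beside CDCP1 had 0.36 and 0.24. THNSL2 beside FOXI3, ZBTB33 beside TMEM255A, RAP2C beside MBNL3 and PTPRG beside C20H3orf14 had 0.58, 0.21, -0.05 and 0.26. TEX37 beside FOXI3, ATP1B4 beside TMEM255A, FEZF2 beside C20H3orf14 and NKX2-5 beside STC2 did not pass the filter, and U6 RNA genes beside MBNL3 and STC2 had no counts.

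Relatives and partners of each gene were followed in lists written from general knowledge. Over all genes tested, 22.3% were higher and 15.2% lower in PPGLs than in NAMs, and 6.92% were called between the PPGL groups. Around TIAM2, 21 of 22 genes of RAC signaling (exchange factors, their ELMO adaptors, RAC GTPases and PAK effector kinases) were found and tested (RAC3 was not found), and 5 were higher and 3 lower in PPGLs than in NAMs, with a median log2 FC of 0.30. ELMO1 fell by 2.26 on the log2 scale (adjusted p 1.93e-07, above every NAM in 0 of 19), and KALRN rose by 1.62 (adjusted p 9.34e-05, 16 of 19). VAV2 had a log2 FC of 0.78 (adjusted p 0.00493, 12 of 19) and PREX2 of -0.91 (adjusted p 0.00798). The paralog TIAM1 was at 11.9 ± 4.61 TMM CPM in NAMs and 17.8 ± 25.3 in PPGLs, with a log2 FC of 0.59 (adjusted p 0.473) although its median fell from 11.4 to 4.95. TIAM1 was the gene of this list called between the PPGL groups, higher in group 1 with a log2 FC of 2.84 (SE 0.58, adjusted p 0.0144), where TIAM2 was lower.

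Around CDCP1, all 17 SRC family kinases and partners were tested, 7 were higher and 4 lower in PPGLs, and the median log2 FC was 0.47. AXL fell by 1.39 on the log2 scale (adjusted p 0.00139) and SRC itself by 0.57 (adjusted p 0.00385), with no PPGL above every NAM for either. The protease gene PLAU was higher, with a log2 FC of 2.09 (adjusted p 0.00189, above every NAM in 17 of 19), and so was ITGB1, with 0.47 (adjusted p 0.00355, 16 of 19). Of the 17, MET was called between the PPGL groups, higher in group 1 with a log2 FC of 2.17 (adjusted p 0.0275).

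Around MEGF11, 9 of 10 family members and related receptors were found and tested against NAMs (MEGF9 was not found), 1 was higher and 3 were lower, and the median log2 FC was -0.47. The paralog MEGF10 moved opposite to MEGF11, from 10.2 ± 6.50 TMM CPM in NAMs to 2.43 ± 1.98 in PPGLs (log2 FC -2.08, adjusted p 0.00135). STAB1 had a log2 FC of -1.32 (adjusted p 1.51e-05) and SCARF1 of -0.89 (adjusted p 0.00545). PEAR1 was called among 8 between the PPGL groups, with a log2 FC of 1.25 (adjusted p 0.0514). The TMEM255A paralog TMEM255B did not pass the filter, with no count in any NAM and 0.0283 ± 0.0404 TMM CPM in PPGLs.

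Around ABCC8, all 10 ABCC transporters and ATP-sensitive potassium channel pores were found and 9 were tested, with 3 higher, 1 lower and a median log2 FC of 0.10. The pore gene KCNJ11, the neighbour described above, was among the higher ones, as were the paralog ABCC9 (8.34 ± 3.47 TMM CPM in NAMs and 37.7 ± 51.7 in PPGLs, log2 FC 2.18, adjusted p 0.00662, 9 of 19 above every NAM) and ABCC4 (log2 FC 2.41, adjusted p 0.000104, 16 of 19). ABCC6 was lower (log2 FC -2.75, adjusted p 0.000283), and ABCC2 had no count in any sample. Per kilobase, mean levels in PPGLs were 6.16 TMM CPM per kb for ABCC9 and 1.01 for KCNJ11. EdgeR called 0 of 8 between the PPGL groups, with 1 at an unadjusted p below 0.05 and 0 by the Mann-Whitney U-test.

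Around LCT, 15 of 16 relatives and intestinal regulators were found (GATA6 was not) and 6 passed the filter, of which 1 was higher, with a median log2 FC of 0.08. It was the maltase-glucoamylase gene MGAM, at 0.208 ± 0.121 TMM CPM in NAMs and 1.12 ± 1.16 in PPGLs (log2 FC 2.42, adjusted p 0.00147, above every NAM in 12 of 19). The paralog LCTL did not pass the filter, with means of 0.0201 TMM CPM in NAMs and 0.225 in PPGLs. CDX2, a regulator of intestinal genes, had no count in any of the 29 samples. Of 6 tested between the PPGL groups edgeR called 0, with 0 at an unadjusted p below 0.05 and 0 by the Mann-Whitney U-test.

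Around STC2, 9 of 10 genes of the list of STC1, pappalysins and IGF-binding proteins were found and tested (IGFBP1 was not found), with 2 higher, 2 lower and a median log2 FC of -0.04. The paralog STC1 was at 5.71 ± 2.22 TMM CPM in NAMs and 80.1 ± 101 in PPGLs (log2 FC 3.81, SE 0.70, adjusted p 0.000123), above every NAM in 15 of 19. The protease gene PAPPA2, whose product cleaves IGF-binding proteins, had a log2 FC of 6.16 (SE 1.49, adjusted p 0.00190), with 9 of 19 PPGLs above every NAM. That fold is not firm, since PAPPA2 was at a mean of 0.0926 TMM CPM in NAMs, and its mean of 7.35 in PPGLs stood beside a median of 0.388, with 3 tumors at 0. IGFBP4 fell by 2.28 on the log2 scale (adjusted p 7.37e-05) and IGFBP7 by 1.19 (adjusted p 0.0148). IGFBP4 was also the 1 gene called between the PPGL groups, lower in group 1 with a log2 FC of -1.84 (adjusted p 0.0356).

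STC2 is known as a target of the transcription factor ATF4 in the integrated stress response, and 15 of 16 genes of that response were found and tested (PHGDH was not found). In PPGLs 3 were higher and 3 lower than in NAMs, with a median log2 FC of 0.12. SLC3A2 fell by 1.89 on the log2 scale (adjusted p 5.79e-07), CEBPB by 1.28 (adjusted p 0.0126) and SLC7A5 by 1.39 (adjusted p 0.0165), while CHAC1 rose by 1.71 (adjusted p 0.00144, above every NAM in 13 of 19). Between the PPGL groups, ATF3 and SLC3A2 were lower in group 1 (log2 FC -2.51 and -0.74, adjusted p 0.0389 and 0.0738) and MTHFD2 higher (1.73, adjusted p 0.0812).

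Around FOXI3, 32 of 42 forkhead genes were found and 18 tested against NAMs, of which 7 were higher and 0 lower, with 10 at an unadjusted p below 0.05, 8 called by the Mann-Whitney U-test and a median log2 FC of 0.37. The paralogs FOXI1 and FOXI2 did not pass the filter, with means of 0.00177 and 0.113 TMM CPM in PPGLs. FOXN4 had the highest log2 FC of those called, 3.56 (adjusted p 0.000620, above every NAM in 15 of 19). FOXP4 had a log2 FC of 1.64 (adjusted p 6.59e-05, 17 of 19), FOXM1 of 1.48 (adjusted p 0.00393, 9 of 19) and FOXJ2, the lowest of the 7, of 0.61 (adjusted p 0.00320, 11 of 19). FOXN4 and FOXM1 were also the genes called among 17 between the PPGL groups, both higher in group 1 with log2 FCs of 2.85 (adjusted p 0.0161) and 1.41 (adjusted p 0.0466).

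Around MBNL3, 21 of 22 tissue-specific splicing factors were found (CELF6 was not) and 19 were tested, with 6 higher, 2 lower and a median log2 FC of 0.32. The paralogs MBNL1 and MBNL2 were abundant in NAMs, at 44.99 ± 6.35 and 114 ± 19.2 TMM CPM, and their log2 FCs were -0.27 (adjusted p 0.173) and -0.39 (adjusted p 0.227). In PPGLs MBNL1 had a mean of 12.0 TMM CPM per kb and MBNL2 of 54.2, against a mean of 1.1999 for MBNL3. ELAVL4 and RBFOX1 were higher (log2 FC 1.72 and 1.99, adjusted p 0.00611 and 0.00692), CELF4 was higher by 0.78 (adjusted p 0.0134) and QKI fell by 0.80 (adjusted p 0.0107). ELAVL2 was the gene called among 20 between the PPGL groups, with a log2 FC of 2.57 (adjusted p 0.0244).

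Over all genes, the median log2 FC was 0.13 for PPGLs against NAMs and 0.04 for group 1 against group 2, and 37.5% of genes were called in the former (22.3% higher and 15.2% lower), with 3.97% higher and 2.95% lower in the latter. The medians of the lists between the PPGL groups were 0.00 for the RAC list, -0.22 for the SRC list, -0.40 for the MEGF list, 0.04 for the ABCC list, 0.09 for the lactase list, -1.18 for the STC1 list, -0.16 for the stress response list, -0.13 for the forkhead list and 0.16 for the splicing list. By the Mann-Whitney U-test 0 genes of these 9 lists were called between the PPGL groups. These lists were described by counts and medians and had no test of their own.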

How the data were processed

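Values are counts of reads over the exons of each Ensembl gene (CanFam3.1), which the authors deposited as raw counts for each of the 29 samples. The submitters' notes name STAR and HTSeq, whereas the deposited table is titled after featureCounts, so which program counted the reads is not known; the strand setting of the counting and the handling of reads with several matches are not given in the sources used here. Values were checked to be whole numbers. Counts were filtered by filterByExpr (minimum count 10, minimum total 15), normalized by TMM and tested with edgeR's quasi-likelihood F test, with Benjamini-Hochberg adjustment over all genes tested, with thresholds on the adjusted p of 0.05 in the comparison with NAMs and 0.1 between the PPGL groups. Log2 FCs are edgeR's with its default prior count. Correlations used log2 TMM CPM with a prior count of 2 and 100000 two-sided permutations (20000 with a tumor left out). Where the 2 tumors farthest from the median were left out, the median was that of the first-named gene. The marker level or second gene had no part in that choice. Named were all 10 genes, the 3 named genes with the highest rho for each, the nearest named gene on either side, in each list up to 4 called genes with the smallest adjusted p per comparison and the closest paralog, and in each marker list the most abundant gene; some genes under this rule are not reported here. The genes and lists were chosen with earlier results of these data known. Alternatives were scaling by library size or by the size factors of DESeq2, leaving out the filter or requiring 1 CPM, the Wald test of DESeq2, the Mann-Whitney U-test, all 3 groups in 1 fit, the sample number as a replicate block, other prior counts, Pearson in place of Spearman, values centred on each PPGL group and samples left out in turn. The steps were tested on simulated data. For the edgeR fits, 200 genes with a mean over 1 CPM were changed 8-fold in every sample of 1 group. Of these, 189 were called in PPGLs against NAMs, with 3 false calls. Between the PPGL groups 187 were called, with 10 false calls. No changed gene had a simulated NAM mean under 1 CPM, as several of the 10 genes did in the data, so their setting was not covered. Software was edgeR 4.0.16, DESeq2 1.42.0 and limma 3.58.1 in R 4.3.3, and scipy 1.17.1 and matplotlib 3.10.9 in Python 3.11.15. Clinical, survival and immunohistochemistry data were not used here.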

Additional observations from a re-analysis of the deposited data

Results flagged for a closer look

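Within the NAMs, FOXI3 had a sample far from the others: NAM replicate 3 held 2 counts (0.0763 TMM CPM) and the other NAMs 0, so the gap to the nearest sample was the whole range (ratio of gap to range 1). With 2 counts this is at the floor of 3 counts. For C20H3orf14, NAM replicate 6 lay below the others, at 111 counts or 3.84 TMM CPM against 5.81 in the next lowest NAM, and the gap was 0.49 of the range on the log2 scale. Of 20 groups examined in this way (10 genes in NAMs and in group 1), 2 had such a sample. The rule is set to flag about 1 in 20 groups by chance. For FOXI3 in NAMs the ratio is 1 whatever the count, since all other NAMs were at 0. Nothing is therefore read from the number of groups flagged. For TIAM2, the PPGL groups differed in their distance from the same NAMs, by -0.903 on the log2 scale for group 1 against group 2, which is the group difference tested by edgeR (adjusted p 0.0575).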

How the results depend on the processing

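In PPGLs against NAMs, 4653 to 6589 genes were called under the alternatives and 4917 to 5812 with each sample left out in turn, an alternative chosen after seeing the data, against 5541. The direction of the 10 genes in this comparison was fixed by their selection and is not a sign of stability. The number of PPGLs above every NAM changed for CDCP1 (16 to 18) and STC2 (16 to 17). Between the PPGL groups 1015 genes were called, against 1793 by DESeq2's Wald test, 299 by the Mann-Whitney U-test, 2384 with all 3 groups in 1 fit and 47 with the replicate block; with a tumor left out 497 to 1189 were called, 497 without group 1 replicate 7. Of the 10 genes, 2 were called by DESeq2 and with 3 groups (TIAM2 and TMEM255A, the latter at -2.67 with an adjusted p of 0.0659 and 0.0798), 0 by the Mann-Whitney U-test and with the block, and 0 to 1 with a tumor left out. TIAM2 was -0.93 to -0.77 under the alternatives (adjusted p 0.0132 to 0.196) and -1.09 to -0.80 with a tumor left out, and was not called by the Mann-Whitney U-test (-0.77, a difference of median log2 levels) or with the block (-0.90). For MEGF11 (1.27), STC2 (0.012) and TMEM255A (0.82) the difference of median log2 levels had the opposite sign to the log2 FC. That difference is not the statistic of the Mann-Whitney U-test, whose direction is not given here. With the block the sign changed for STC2 (0.13) and TMEM255A (0.31). With a tumor left out ABCC8 ran from -0.59 to 0.077, FOXI3 from -0.87 to 0.41 and MBNL3 from -0.73 to 0.27. The cause was not tested. The block pairs samples by number, but the numbers belong to different dogs: of 24 pairings of samples with the same number, 2 had a correlation over 0.1, with a median of -0.0132 against 0.00161 for other pairs. The number of correlated gene pairs was 1 in each alternative and 0 to 2 with a tumor left out (2 without group 1 replicate 6, 0 without group 2 replicates 4, 7, 10 or 11), and that of marker relations 2 to 4 and 1 to 5 (5 without group 2 replicate 9). STC2 gave no value under the filter of at least 1 CPM. For FOXI3, MBNL3 and STC2, whose NAM counts were at most 5, the size of a fold is limited by depth.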
